A study of Mus musculus with 6 samples.

Results

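The genes described here are 10 enzymes and accessory proteins of eicosanoid metabolism that lie outside the cytochrome P450 family. They are Pla2g4a, Ptgs1, Ptgs2, Alox5, Alox5ap, Lta4h, Ltc4s, Alox12, Alox15 and Ephx2. They were chosen by gene symbol, and all 10 of 10 were found among the 17460 rows of the liver RNA-seq table. The table holds 6 livers of C57BL/6 mice aged 9 months, 3 control and 3 with liver-specific loss of the long noncoding RNA Blnc1 (LKO), and both groups ate a NASH diet for 24 weeks. LKO mice were made by injecting Cas9 transgenic mice with an adenovirus that carries sgRNAs against Blnc1. The study describes its controls, for its high-fat diet experiment, as Cas9 transgenic mice given a GFP adenovirus. As a model this has limits. The study reports that hepatocytes lost most, but not all, of their Blnc1, and that non-parenchymal liver cells largely kept theirs.

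Eicosanoids are signalling lipids made from arachidonic acid, which phospholipase A2 releases from membranes. Cyclooxygenases turn it into prostaglandins and thromboxane, lipoxygenases into leukotrienes, lipoxins and hydroxy fatty acids, and P450 enzymes into epoxides that soluble epoxide hydrolase removes. In the liver, cyclooxygenase and 5-lipoxygenase products are known mostly from macrophages and other myeloid cells, whereas soluble epoxide hydrolase is abundant in hepatocytes. In whole liver RNA, fewer cells of a type and less RNA per cell cannot be told apart.

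The livers had between 65384969 and 89350181 reads on the listed genes. Values are read counts divided by a size factor of each liver (normalized values), and no pair of replicates was as close as counting error alone would give. All 10 hepatocyte markers fixed for the check, such as Alb and Hnf4a, had reads in every liver. Ass1, however, had only 4 to 13 reads in a liver, against 92193 to 136371 for Cps1. The reason for the low Ass1 value was not tested. LKO replicate 3 stood apart in its neutrophil genes, with a summed normalized value of 5958 over the 7 markers in the table against 456 to 1199 in the other 5 livers. Counts of markers are given with and without this liver. Summed macrophage and Kupffer cell markers ranged from 82089 to 88872 in control and from 90748 to 95856 in LKO livers, and 8 of these 10 markers had a higher mean log2 value in LKO livers, also without LKO replicate 3.

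The level of each gene was compared per kilobase of its longest transcript. Ephx2 was by far the most abundant, at 35361 ± 4351 normalized units per kb (SD, n = 6 livers), which was 33.8 times the level of Lta4h. Lta4h (1045 ± 31.6), Ptgs1 (759 ± 40.9) and Alox5ap (474 ± 66.0) followed, and their ranges over the 6 livers did not overlap. Pla2g4a was next at 160 ± 7.97 per kb, followed by Ltc4s (42.8 ± 7.64) and Alox12 (32.2 ± 4.37), whose ranges overlapped. Ptgs2 (5.73 ± 1.87), Alox15 (4.52 ± 0.989) and Alox5 (4.36 ± 1.49) were lowest and could not be ordered beyond their spread. The cyclooxygenase RNA of these livers was thus mostly Ptgs1, at 132 times the level of Ptgs2 per kb. Ptgs2 had 14 to 36 reads in a liver, and protein and activity were not measured. The accessory protein of 5-lipoxygenase, Alox5ap, was listed at 109 times the level of Alox5 itself. With the union of all exons as the length, Ptgs1 (560 per kb) and Lta4h (552 per kb) exchanged places and their ranges overlapped, while the other places stayed.

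**Figure D1:**
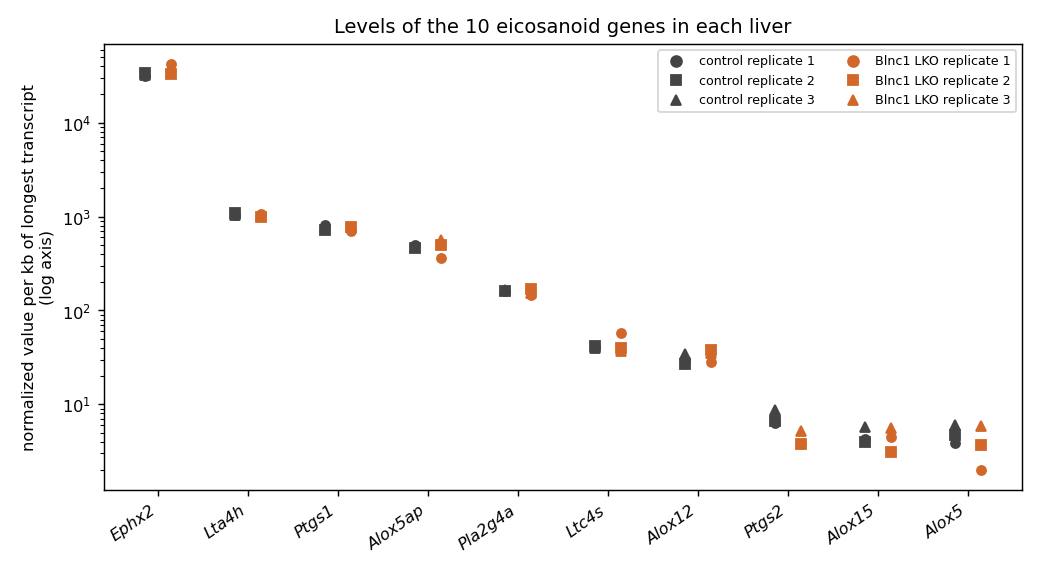
Normalized value per kilobase of the longest transcript (log axis) for each of the 10 genes, with 1 point for each of the 6 livers, control in grey and Blnc1 LKO in orange. Ephx2 lies near 35361 per kb, whereas Ptgs2, Alox15 and Alox5 lie below 9 per kb in every liver.

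The question put to these genes was which of them differ between control and LKO livers. None of the 10 passed an adjusted p under 0.05 (limma on log2(value + 1), Benjamini-Hochberg over 17297 genes), with adjusted p from 0.84 to 0.995. Over all genes, 1 passed (0.00578%). All 10 genes passed the filter on low values. At an unadjusted p under 0.05, there were 2 of the 10, Ptgs2 lower (2.74% of all genes were) and Ephx2 higher in LKO livers (2.94%), against 5.68% of all genes in either direction. In edgeR these 2 genes were again at an unadjusted p under 0.05 (5.6% of all genes) and 0 were called (0.0116%), as in voom (5.59%, with 0 called), and in DESeq2 Ephx2 alone was (4.89%) and 0 were called (0.486%). Ptgs2 was also the 1 gene of the 10 whose LKO values lay wholly on one side of the control values, against 10.6% of all genes, of which 5.28% were lower and 5.35% higher. The share among the 10 genes is thus near that of all genes. The means of 7 of the 10 were lower in LKO livers, against 50.4% of all genes, and the median log2 fold change was −0.036 against −0.00099 over all genes. An exact permutation test of 3 against 3 livers cannot give a p below 0.1.

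**Figure D2:**
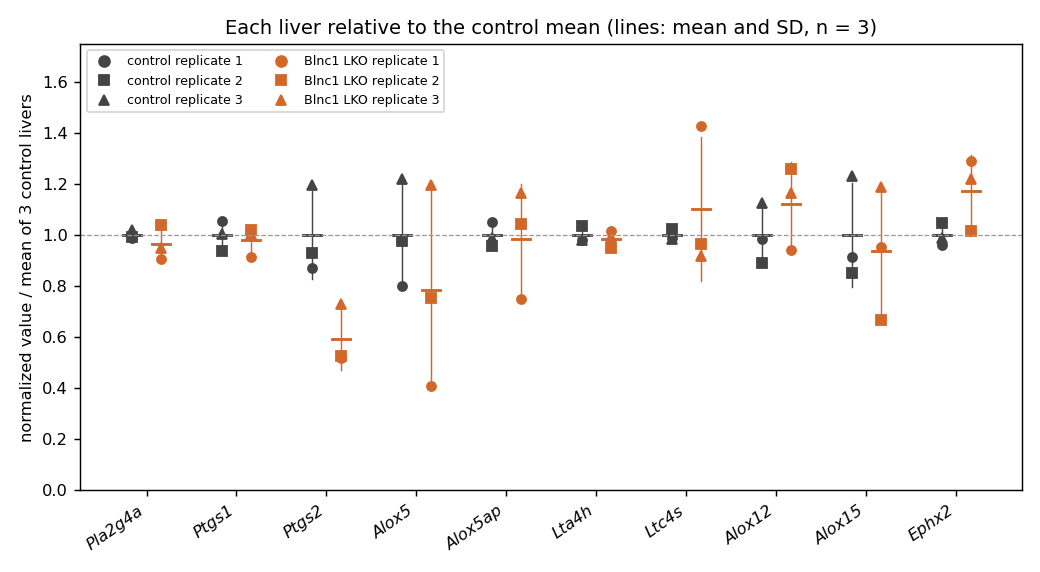
Normalized value of each gene in each liver divided by the mean of the 3 control livers, with the group mean and SD as lines. The 3 LKO points of Ptgs2 lie below all control points, and for the other 9 genes the groups overlap.

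Pla2g4a encodes cytosolic phospholipase A2 alpha, which releases arachidonic acid from membrane phospholipids. Its gene lies on the − strand of chromosome 1 (GRCm38, 149829618 to 149961290), 138740 bases from Ptgs2, with no other protein-coding gene between them. Control livers had normalized values of 555, 556 and 572, and LKO livers had 508, 584 and 532. The control values lay close together and inside the wider LKO range. LKO minus control, the log2 fold change was −0.05 (standard error 0.084, 95% confidence interval −0.24 to 0.14, adjusted p = 0.981, limma). The interval of the fold between LKO and control ran from 0.844 to 1.1, so a change by more than this in either direction lies outside it.

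Ptgs1 encodes cyclooxygenase-1, the constitutive enzyme of prostanoid synthesis, on chromosome 2 (GRCm38, 36230426 to 36252272, + strand). The 3 control livers measured 2323, 2060 and 2209, against 2011, 2242 and 2207 for LKO. The groups overlapped almost fully, and the log2 fold change was −0.03 ± 0.069 (standard error), with an interval from −0.19 to 0.13 (adjusted p = 0.989, limma).

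Ptgs2 encodes cyclooxygenase-2, the form induced by growth factors, cytokines and other stimuli, on chromosome 1 (GRCm38, 150100031 to 150108227, + strand). It stood at 28.0, 29.8 and 38.3 in the control group, and at 16.7, 16.9 and 23.4 in the LKO group. Every LKO liver was below every control liver, and the highest LKO value belonged to replicate 3. The means were 32.0 ± 5.53 and 19.0 ± 3.82 (SD, n = 3 each), an LKO mean of 0.593 times control. The log2 fold change was −0.73 (standard error 0.26, interval −1.33 to −0.13) and did not pass the adjustment (adjusted p = 0.84, limma). Without LKO replicate 3 it was −0.88. These values rest on few reads, from 28 to 36 in each control liver and from 14 to 28 in each LKO liver. The exact 95% Poisson intervals, which cover counting error only, were 7.65 to 23.5 reads in LKO replicate 1 and 18.6 to 40.5 reads in control replicate 2, and they overlap. The direction was the same in all 14 alternatives tried, with log2 fold changes from −0.88 to −0.60 and adjusted p from 0.492 to 1.00.

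Because Ptgs2 is the gene whose groups did not overlap, the sequence at its annotated start is shown as a regulatory landmark. RefSeq promoter windows of 300 bases (GRCm38.p6, 250 bases before to 50 after the annotated start) were given for 7 of the 10 genes. They were searched on both strands for CACGTG, an E-box, for TGACG, part of the cyclic AMP response element, for TGANTCA, an AP-1 site, and for TATAAA. The start was not measured here, so whether the bases shown are transcribed in these livers was not tested. The 30 bases from the annotated Ptgs2 start, at chr1:150100031-150100060 on the + strand, are printed. Capitals mark the 9 bases that hold CACGTG and, overlapping it on the other strand, TGACG.
Ptgs2: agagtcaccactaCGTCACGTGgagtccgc
The capitals begin at base 14 counted from the annotated start. CACGTG was in 7.15% of all 32851 windows, TGACG in 20.8% and the joined 9 bases in 0.4505%. Of the 7 genes, Ptgs2 alone held CACGTG or TGACG, Pla2g4a alone held TATAAA (13.6% of all windows), and none held TGANTCA (7.81%). A match describes these letters and was not linked here to the level of Ptgs2.

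**Figure D3:**
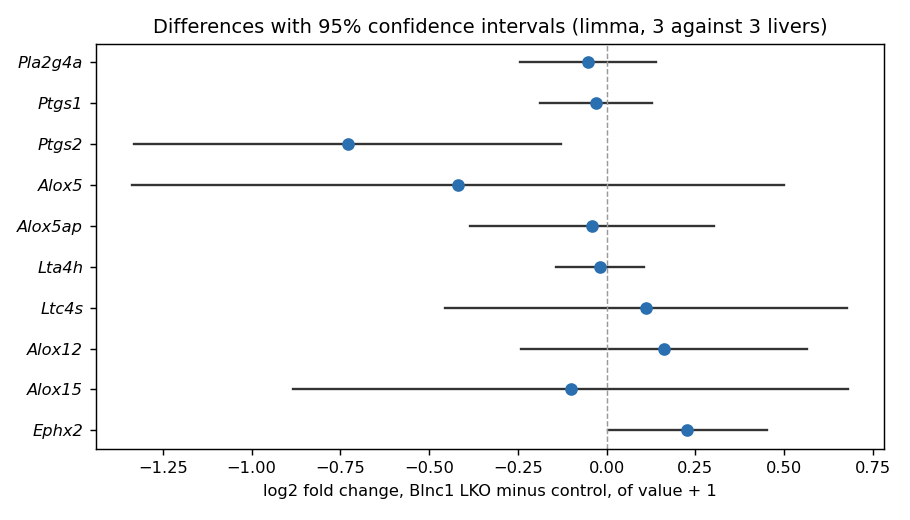
Log2 fold change of value + 1, Blnc1 LKO minus control, for each gene (points) with its 95% confidence interval (lines) from limma. The intervals of Ptgs2 (−1.33 to −0.13) and Ephx2 (0.0023 to 0.45) do not contain 0 before adjustment, and that of Lta4h is the narrowest (−0.14 to 0.10).

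The next 4 genes belong to the leukotriene branch. Alox5 encodes 5-lipoxygenase, which starts leukotriene synthesis, on chromosome 6 (GRCm38, 116410077 to 116461178, − strand). Control livers had values of 13.99, 17.0 and 21.3, and LKO livers had 7.14, 13.2 and 20.9. LKO replicate 1, with 6 reads, was the lowest, and LKO replicate 3 lay among the control livers. The log2 fold change of −0.42 had a standard error of 0.40 (interval −1.34 to 0.50, adjusted p = 0.973, limma), so no difference was detectable at this depth. The value was −0.05 without LKO replicate 1 and −0.76 without LKO replicate 3.

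Alox5ap encodes FLAP, the membrane protein that presents arachidonic acid to 5-lipoxygenase, on chromosome 5 (GRCm38, 149264767 to 149288153, + strand). The control group gave 628, 573 and 590.1, and the LKO group 449, 624 and 696. The LKO livers spread to both sides of the control livers, with replicate 1 lowest and replicate 3 highest. The log2 fold change was −0.04 (standard error 0.15, interval −0.39 to 0.30, adjusted p = 0.995, limma), which was 0.14 without LKO replicate 1 and −0.17 without LKO replicate 3. Reads of an antisense gene, Gm19719, which overlaps 13.3% of the exon bases, cannot be told apart in libraries that do not keep strand.

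Lta4h encodes leukotriene A4 hydrolase, which makes the chemoattractant leukotriene B4 and is also an aminopeptidase, on chromosome 10 (GRCm38, 93453411 to 93484875, + strand). Control livers measured 3332, 3518 and 3325, against 3444, 3225 and 3372 for LKO. This was the steadiest of the 10 genes, at −0.02 ± 0.054 on the log2 scale (standard error), and the interval of its fold ran from 0.906 to 1.07 (adjusted p = 0.993, limma).

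Ltc4s encodes leukotriene C4 synthase, which joins glutathione to leukotriene A4, on chromosome 11 (GRCm38, 50236461 to 50238616, − strand). It stood at 28.9, 29.8 and 28.8 in control, and at 41.7, 28.2 and 26.7 in LKO mice. LKO replicate 1 was above the other 5 livers, which lay close together. The log2 fold change was 0.11 (standard error 0.25, interval −0.46 to 0.68, adjusted p = 0.988, limma), and −0.08 without LKO replicate 1. There were 27 to 35 reads in a liver, and an antisense gene, Gm26542, overlaps 26.4% of the exon bases.

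Alox12 and Alox15 encode the platelet-type 12-lipoxygenase and the 12/15-lipoxygenase. They lie 88798 bases apart on the − strand of chromosome 11 (GRCm38, 70241457 to 70255353 and 70344152 to 70352031) with their relative Alox12e between them, and reads from stretches alike in these genes can be left out or split by the counting. Alox12 had values of 89.5, 81.0 and 102 in the control group, against 85.7, 115 and 106 in the LKO group. LKO replicates 2 and 3 were above all control livers and replicate 1 was between them. For Alox12 the log2 fold change was 0.16 (standard error 0.18, interval −0.24 to 0.57, adjusted p = 0.973, limma). Alox15 had values of 10.3, 9.59 and 13.8 in the control group, against 10.7, 7.52 and 13.4 in the LKO group. With 8 to 16 reads in a liver, the groups overlapped and the log2 fold change of −0.10 had an interval from −0.88 to 0.68 (adjusted p = 0.994, limma).

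Ephx2 encodes soluble epoxide hydrolase, which turns the epoxides made by P450 epoxygenases into diols, on chromosome 14 (GRCm38, 66084374 to 66124500, − strand). Control livers reached 63758, 69390 and 65320, and LKO livers reached 85291, 67363 and 80631. LKO replicates 1 and 3 were above all control livers, whereas LKO replicate 2 was below control replicate 2. The means were 66156 ± 2908 and 77762 ± 9302 (SD, n = 3 each), an LKO mean of 1.18 times control. The log2 fold change was 0.23 (standard error 0.098, interval 0.0023 to 0.45) and did not pass the adjustment (adjusted p = 0.873, limma). Over the alternatives the log2 fold change stayed between 0.16, without LKO replicate 1, and 0.33, without LKO replicate 2, with adjusted p from 0.215 to 1.00, and it was 0.20 without LKO replicate 3. With reads scaled by library size alone, the LKO livers were all above the control livers for Ephx2 as well as all below for Ptgs2, 2 of the 10 genes against 10.2% of all genes. Beside this, 6 of 10 hepatocyte markers had a higher mean log2 value in LKO livers (5 of 10 without LKO replicate 3). Their summed values, most of which is Alb, overlapped (5808590 to 6480410 in control and 5849680 to 7033060 in LKO livers). Cyp2e1, a P450 of the hepatocyte, was the 1 marker of this list with all LKO livers above all control livers (5.35% of all genes were). It was at 1.33 times control (adjusted p = 0.851, limma), and it is named after its values were seen. The 4 markers with lower mean log2 values were Cps1, Tat, Apoa1 and Ass1, at 0.857, 0.88, 0.958 and 0.731 times control. Of these, Ass1 had at most 13 reads in a liver. The part of the hepatocyte markers in the Ephx2 value was not tested.

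The rest of the eicosanoid pathway was followed with 8 lists of genes by role, of which 63 of 72 genes were in the table and tested. None of the 63 passed the adjustment in either direction (limma). At an unadjusted p under 0.05 there were 2 higher and 6 lower in LKO livers, 12.7% against 5.68% of all genes, and the median log2 fold change was 0.014. The LKO values of 2 of the 63 lay wholly above the control values and those of 5 wholly below. Over all genes these shares were 5.35% and 5.28%, so genes described below as without overlap are to be read beside them. In edgeR 0 of the 63 were called (0.0116% of all genes), and 9 were at an unadjusted p under 0.05 (5.6%). In DESeq2, 8 of the 63 were at an unadjusted p under 0.05 (4.89% of all genes). There 1, Ptgfr, was called, against 0.486% of all genes called. No count was read as particular to the pathway, since the lists were written with results of these data known.

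Among 16 other genes listed for arachidonate release, 2 were at an unadjusted p under 0.05 and both were lower. Release itself was not measured, and neither gene is read here as a change in it. Pla2g7, which encodes the secreted phospholipase that inactivates platelet-activating factor, had 1838 ± 82.9 in control and 1477 ± 133 in LKO livers (SD, n = 3 each), with all LKO livers below all control livers (log2 fold change −0.32, adjusted p = 0.577, limma). Pla2g2e, a secreted phospholipase A2, had at most 8 reads in a liver, and its values were 6.79 ± 1.62 and 2.45 ± 1.12 (adjusted p = 0.84, limma). The other lipoxygenases were low: Aloxe3, an epidermal lipoxygenase, had 7.95 ± 3.95 and 15.8 ± 4.50, and Alox8 had 4.79 ± 0.922 and 6.79 ± 2.79, with overlapping groups. Relatives of Ltc4s also overlapped, with 2490 ± 337 and 2029 ± 244 for Mgst3 and 10.5 ± 3.78 and 15.8 ± 4.50 for Mgst2, which can also make leukotriene C4 (adjusted p = 0.851 and 0.952, limma). Mgst3, at a log2 fold change of −0.29, was 1 of the 6 pathway genes lower at an unadjusted p under 0.05.

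Of 11 prostanoid synthases, 1 was higher and 1 lower at an unadjusted p under 0.05. Ptgds, the lipocalin-type prostaglandin D synthase, had 32.7 ± 10.3 in control and 52.0 ± 5.58 in LKO livers, with no overlap (log2 fold change 0.69, adjusted p = 0.84, limma). Cbr1, a carbonyl reductase that acts on prostaglandin E2 among other substrates, had 6492 ± 787 and 5379 ± 279, with overlap (adjusted p = 0.824, limma). Ephx3 (23.4 ± 6.73 and 25.3 ± 10.3) and Ephx4 (26.4 ± 4.82 and 25.3 ± 7.83), relatives of soluble epoxide hydrolase, overlapped between groups.

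Among 8 prostanoid receptors, Ptgfr, the receptor of prostaglandin F2 alpha, had 125, 181 and 178 in the control group, against 82.1, 96.8 and 69.3 in the LKO group. The groups did not overlap. Its log2 fold change was −0.95 ± 0.20 (standard error), which did not pass in limma (adjusted p = 0.548) and passed in DESeq2 (adjusted p = 0.0111). Over all alternatives the adjusted p of Ptgfr ranged from 0.0111 to 1.00, and the fold change from −1.12 to −0.83. Ptgdr2, the second prostaglandin D2 receptor, had at most 2 reads in a liver and is given no fold.

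Among 6 leukotriene and lipoxin receptors, Fpr2, which binds formyl peptides and is described as a lipoxin A4 receptor, had 139, 132 and 109.7 in the control group, against 208, 169 and 271 in the LKO group. All LKO livers were above all control livers (log2 fold change 0.74, standard error 0.19, adjusted p = 0.604, limma), and replicate 3, with the high neutrophil genes, was the highest. Without that liver the log2 fold change was 0.57. LKO replicate 1, with a neutrophil marker sum of 541, had more Fpr2 than LKO replicate 2, with a sum of 1199. A part of neutrophils in the Fpr2 value was not tested. Ltb4r1, the high-affinity leukotriene B4 receptor, had 58.1 ± 11.3 and 71.4 ± 11.8 with overlap. Of 13 genes of inactivation and export, Cyp4f18, a leukotriene B4 hydroxylase, was the 1 at an unadjusted p under 0.05. It had 553 ± 68.2 in control and 393 ± 52.1 in LKO livers, with no overlap (adjusted p = 0.638, limma). Cyp4f14, a relative in the liver, had 10003 ± 872 and 11425 ± 1208, with overlap.

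**Figure D4:**
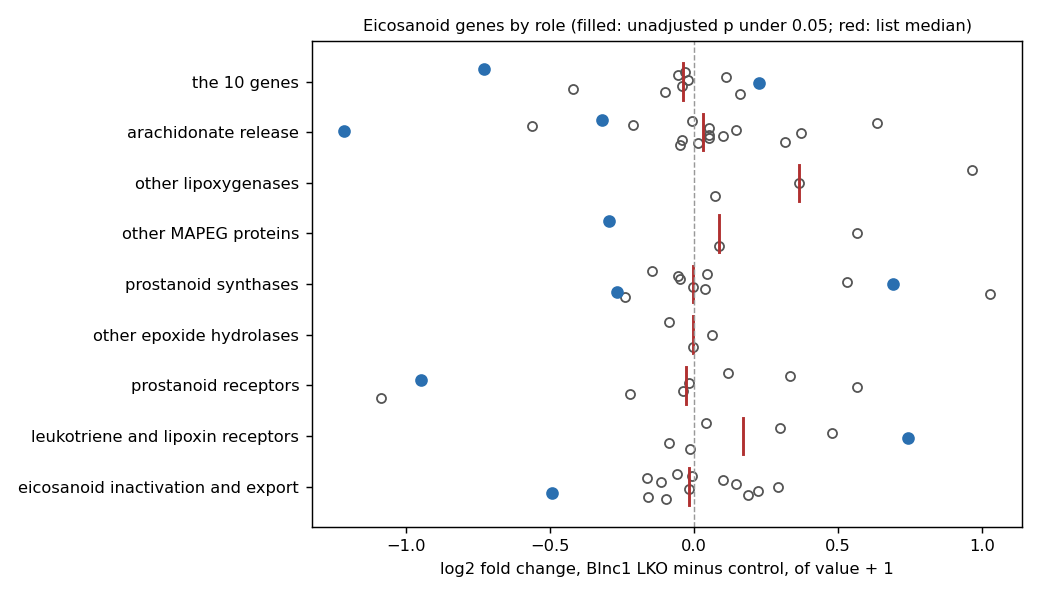
Log2 fold change of each tested gene (points), Blnc1 LKO minus control, for the 10 genes and the 8 lists of other eicosanoid genes, with the median of each list in red and genes at an unadjusted p under 0.05 filled. The filled points lie on both sides of 0, with Ptgfr at −0.95 and Fpr2 at 0.74.

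Cell type markers were read beside these genes because most of the enzymes are known from myeloid cells, platelets or mast cells. No marker of the lists passed the adjustment in limma, with or without LKO replicate 3. Counts of higher and lower markers refer to mean log2 values. Over all genes, 50.4% had a lower mean log2 value in LKO livers. At an unadjusted p under 0.05, 2.94% of all genes were higher and 2.74% lower in LKO livers. The LKO values lay wholly above the control values for 5.35% of all genes and wholly below for 5.28%. Of the 10 macrophage and Kupffer cell markers, 5 were higher in LKO livers at an unadjusted p under 0.05 (3 without LKO replicate 3), and their summed values did not overlap between groups. With all livers included, these 5 were Adgre1, Clec4f, Timd4, Vsig4 and Marco, and 2 markers, Cd68 and Cd14, had lower means. Ptgs1, Alox5ap, Alox5 and Ptgs2 did not have higher means in LKO livers. A part of macrophages in the values of these enzymes was not tested. All 7 neutrophil markers in the table had higher means in LKO livers (Ly6g was not analysed here), with sums of 456 to 970 in control and 541 to 5958 in LKO livers. Without LKO replicate 3, 6 of the 7 were higher and the highest LKO sum was 1199. Platelet marker sums were 725 to 780 in control and 625 to 1084 in LKO livers, with 5 of 6 markers higher, but 2 of 6, Ppbp and Gp9, without LKO replicate 3. Eosinophil sums were 134 to 151 and 133 to 339. The 2 of 5 eosinophil markers with higher mean log2 values, Prg2 and Epx, with or without LKO replicate 3, had more in every LKO liver than in any control liver, with at most 1 read of Epx in a control liver and 28 in LKO replicate 3. The other 3, Siglecf, Ccr3 and Il5ra, had lower mean log2 values, with log2 fold changes of −0.034, −0.11 and −0.34. Mast cells are a known source of leukotriene C4. Their markers summed to at most 38.4 in any liver, with Mcpt4 and Cma1 at 0 in all control livers and Tpsb2 and Fcer1a at 0 in some livers. Endothelial cell sums were 22227 to 23485 in control and 21457 to 22140 in LKO livers, so that these sums did not overlap either. Of the 6 endothelial markers 4 were lower (5 without LKO replicate 3), and 3 of them, Pecam1, Lyve1 and Cdh5, were so at an unadjusted p under 0.05. Stellate cell, cholangiocyte and lymphocyte sums overlapped between groups, with 4 of 6, 4 of 5 and 6 of 7 markers lower in LKO livers. Without LKO replicate 3, 4 of 5 cholangiocyte and 5 of 7 lymphocyte markers were higher instead. The part of these cells in the values of the 10 genes was not tested.

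**Figure D5:**
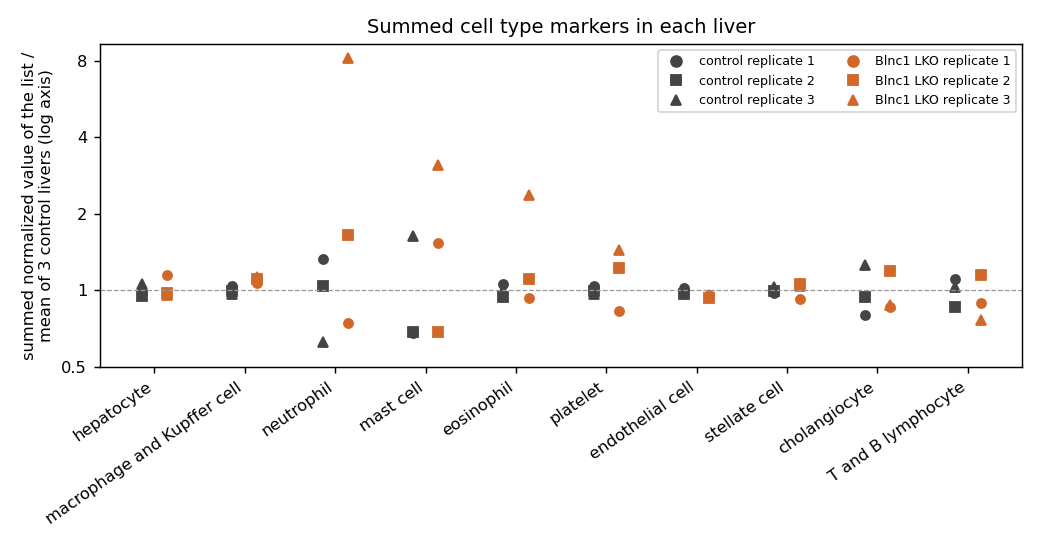
Summed normalized value of each marker list in each liver, divided by the mean of the 3 control livers (log axis). LKO replicate 3 has the highest neutrophil sum (5958), and the macrophage sums of the LKO livers lie just above those of the control livers.

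The genes with the most similar pattern over the 6 livers were found for the 6 of 10 genes with a mean of at least 1 CPM, as those with the smallest mean absolute difference in centred log2 values. For Ephx2 they were Glyat and Abcg2, at 0.0135 and 0.0139, and Lonrf1, at 0.028, where the pattern of Ephx2 itself deviated by 0.142 on average. For Alox5ap they were Laptm5, a lysosomal protein of blood cells, at 0.025, Dok2, an adaptor of blood cells, at 0.0345, and Rbm38, at 0.0357. For Alox12 they were Trp53rkb, Slc29a2 and Lrrc51, and for Ptgs1 they were Usf2, 1110004E09Rik and Uxs1. For Lta4h they were Supt20, Atp6v1h and Cacul1, and for Pla2g4a they were Rnf219, Tmsb4x and Gmeb1. A cell type behind any of these patterns was not tested. With 6 livers and this many genes some patterns are alike by number alone.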

How the data were processed

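PolyA-selected RNA of 6 mouse livers was sequenced. According to the study's methods and the labels, the authors used STAR (genome mm10) for alignment, HTSeq for counting and DESeq2 for comparison. The versions, the annotation and the strand setting are not given in the sources used here, and the library kit named in the labels does not keep strand. In the deposited signal, the authors scaled each read count by a size factor. In every liver 100% of values came out as whole reads (tolerance 0.1 reads), so reads were recovered.

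limma (version 3.58.1, R 4.3.3; lmFit and eBayes with trend) was fitted on the scale log2(value + 1), without covariates, to 17297 genes that reached 1 in 3 or more livers. Fold changes on this scale understate changes of low genes. The p-values weigh the difference between groups against the spread between livers, which eBayes moderates with a trend over all genes tested. The threshold was an adjusted p under 0.05 (Benjamini-Hochberg). edgeR (4.0.16) and DESeq2 (1.42.0) were run on recovered reads as alternatives, with voom, other filters and pseudocounts, a block and each liver left out. On counts simulated for the LKO and control livers (17147 genes), limma called 185 of 200 genes given a log2 change of 1.5, and 11 unchanged genes. A change of 1.5 is larger than that of any of the 10 genes. The simulation therefore does not show whether changes as small as theirs could be called. Gene models and lengths came from GENCODE release M21 (GRCm38) and promoter sequences from RefSeq. All 10 genes are named, with the 2 genes of smallest p of each pathway list. The genes and lists were chosen with earlier results of these data known. Same-numbered livers did not deviate together (r from −0.107 to −0.0191), so numbers were not used as pairs.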

Additional observations from a re-analysis of the deposited data

How the results depend on the processing

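None of the 10 genes was called under any of the 14 alternatives. The number of genes called over the whole table was 1 as reported, 2 without a filter on low values, 2 in edgeR, 84 in DESeq2 and 0 with the replicate number as a replicate block. With 1 liver left out it ranged from 0 (without control replicate 1) to 13 (without LKO replicate 2), and was 2 without control replicate 2 or LKO replicate 1. Of the 63 pathway genes, DESeq2 called 1. Of the 10 genes, those whose groups did not overlap were 1 as reported, 2 where reads were scaled by library size alone (10.2% of all genes) and 1 to 3 with 1 liver left out (18.1% to 28.3% of all genes). Counts of markers without LKO replicate 3 were added after seeing the data.

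The signs of small log2 fold changes turned when 1 liver was left out, with ranges of −0.17 to 0.14 for Alox5ap, −0.28 to 0.10 for Alox15, −0.075 to 0.019 for Ptgs1, −0.084 to 0.23 for Ltc4s, −0.040 to 0.0073 for Lta4h, −0.31 to 0.12 for Ephx4 and −0.20 to 0.41 for Ephx3. The cause was not tested. The replicate number as a replicate block left Ptgs2 alone at an unadjusted p under 0.05. Ptgs2, Ephx2, Alox5, Alox12 and Pla2g4a kept their direction in every alternative. Leaving a liver out assumes that the remaining ones vary alike. Depth limits Ptgs2, Alox5, Alox15 and Ltc4s, which had at most 36 reads in a liver.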
